A study of Homo sapiens with 8 samples.

Results

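MHC class II antigen presentation is described here through 10 genes chosen by symbol out of the 15597 genes measured: HLA-DRA, HLA-DRB1, HLA-DPA1, HLA-DPB1, HLA-DQA1, HLA-DQB1, HLA-DMA, HLA-DMB, CD74 and CIITA. The rule goes by symbol and uses no measured value, although results of these data were known when the set was proposed. All 10 genes passed the filter on low values and were tested. RNA was sequenced from SUDHL-4, an established human cell line of germinal-centre type derived from diffuse large B-cell lymphoma. The study asked how overexpression of FDX1, a mitochondrial ferredoxin, changes gene expression when elesclomol, a small molecule that carries copper into cells, is added. There were 4 groups of 2 libraries. These were control cells of WT genotype in DMSO, control cells in 5 nM elesclomol (ES), FDX1-overexpressing cells (FDX1-OE) in DMSO and FDX1-OE cells in 5 nM ES, each for 48 h. Whether the FDX1-OE cells were 1 clone, which promoter drove FDX1 and whether the control cells carried an empty vector is not stated in the labels. The 2 libraries of a group are not said to come from separate cultures.

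Class II molecules are pairs of an alpha and a beta chain that display peptides from the endosomal pathway to CD4+ T cells. HLA-DR, HLA-DP and HLA-DQ are the displaying pairs. The invariant chain, encoded by CD74, occupies the groove of a new pair and guides it to the endosome, where HLA-DM removes the last piece of the invariant chain and helps peptides to load. CIITA is the coactivator that switches these genes on. It does not bind DNA itself but docks on RFX, CREB and NF-Y proteins seated side by side on the class II promoters, where NF-Y reads a CCAAT box. B cells express the whole set without stimulation.

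The CCAAT box that this shared control is known for could be read in the promoters. RefSeq promoters of GRCh38.p14, from 250 bases before to 50 bases after the start, were in the table used here for 8 of the 10 genes, and HLA-DRA and CIITA were not among them. The table held 9 promoters for these 8 genes. A CCAAT box on either strand was in 7 of the 9, each of a different gene, against 34.61% of 35116 promoters of the same length. HLA-DPA1 had none in this window. The pattern GATGANG was picked after these promoters were read because it recurred in them, so its count here supports nothing. It lay ahead of a CCAAT box on the gene's own strand in HLA-DRB1, HLA-DQB1, HLA-DMA, HLA-DMB and CD74. HLA-DPA1 and HLA-DPB1 held it on the opposite strand, and 11.74% of all promoters held it on either strand. The 6 stretches below, from the genes whose CCAAT boxes lay farther from the start than that of HLA-DMB, show where both patterns lie. Whether their spacing bears on the response to ES was not tested. Each runs 5′ to 3′ along the gene's own strand. Capitals mark a CCAAT box, which reads ATTGG where it lies on the opposite strand, and GATGANG where it occurs within the stretch.
HLA-DRB1, chr6:32589880-32589944, minus strand: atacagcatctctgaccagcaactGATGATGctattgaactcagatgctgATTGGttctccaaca
HLA-DQB1, chr6:32666731-32666795, minus strand: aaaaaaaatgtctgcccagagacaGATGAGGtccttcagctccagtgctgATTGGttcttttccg
HLA-DMA, chr6:32953162-32953226, minus strand: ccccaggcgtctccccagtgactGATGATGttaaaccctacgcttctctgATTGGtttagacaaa
CD74, chr5:150412949-150413013, minus strand: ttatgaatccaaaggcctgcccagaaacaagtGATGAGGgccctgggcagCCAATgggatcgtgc
HLA-DQA1, chr6:32637288-32637352, plus strand: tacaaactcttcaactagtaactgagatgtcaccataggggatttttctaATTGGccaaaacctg
HLA-DPB1, chr6:33075841-33075905, plus strand: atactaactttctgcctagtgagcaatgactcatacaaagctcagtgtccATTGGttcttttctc

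The bases between the marked patterns numbered 19 in HLA-DRB1, 19 in HLA-DQB1, 20 in HLA-DMA and 11 in CD74. Where several CCAAT boxes lay near the start, the one closest after GATGANG was marked, or the most upstream without GATGANG. The spacing was thus partly set by this choice. Boxes that are not marked began at -195 in HLA-DRB1, -64 in HLA-DQB1, -49 in HLA-DMA, -222 in HLA-DQA1 and -75 in HLA-DPB1. In HLA-DMB, which is not shown because its only box began nearer the start, at -22, GATGANG began at -102 and at -81. In HLA-DRB1, HLA-DQB1 and HLA-DMA the marked box was part of the longer Y-box sequence CTGATTGG, which 3.97% of all promoters held on either strand. The stretches of HLA-DQA1 and HLA-DPB1 hold a CCAAT box with no GATGANG ahead of it. Of the other patterns searched on either strand, CCTAGNNA, read as the start of an X box, was in 3 of the 8 genes and in 9.81% of promoters. A core of the interferon-stimulated response element was in none of the 8 and in 3.57% of promoters. The pattern TTCNNNGAA was in HLA-DQA1, beginning at -200, and in no other of the 8, and 7.66% of promoters held it. These matches describe letters in a reference sequence, and no binding was measured in these cells.

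The libraries held between 33435438 and 35883528 reads, of which 99.94% lay in the listed genes. Levels are FPKM, reads scaled by the length of the gene and by the library total. For a 1 kilobase gene, the floor of 3 reads was 0.0836 to 0.0897 FPKM, which covers counting error only. FDX1 stood at 21.3 to 25.6 FPKM in the 4 control libraries and at 69.9 to 84.8 FPKM in the 4 FDX1-OE libraries. All 6 B-cell markers examined, such as CD79A, were present. Their summed level was 1444 to 1448 FPKM in control cells in DMSO and 1641 to 1690 with ES, and 1341 to 1354 FPKM in FDX1-OE cells in DMSO and 1703 to 1708 with ES. It thus moved with ES too, and its part in the results was not tested. Of 10 listed markers of monocytes, macrophages and dendritic cells, the other cells that carry class II, 7 stayed below 1 FPKM in every library, CD14 and LYZ among them. FCGR3A and CLEC9A were not among the genes measured. The summed level of these 10 markers nevertheless moved with ES, from 6.74 to 7.72 FPKM in control cells in DMSO to 14.8 to 18.9 in ES, and from 10.1 to 11.4 FPKM in FDX1-OE cells in DMSO to 39.8 to 43.0 in ES. That rise lay in CD68 and FCER1G, which were called higher with ES in both genotypes, and its part in the results was not tested. The remaining marker, CD1C, had group means of 3.06 FPKM in control cells in DMSO and 2.43 with ES. In FDX1-OE cells they were 3.07 FPKM in DMSO and 2.76 with ES. Of 8 T and NK markers 6 were measured, and 5 of them, CD3D and CD3G included, stayed below 1 FPKM in every library. The exception, CD3E, had group means of 4.38 FPKM in control cells in DMSO, 7.13 with ES, 5.996 in FDX1-OE cells in DMSO and 7.86 with ES, and its part in the results was not tested either.

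A change below is a log2 difference of FPKM + 1 between group means, with its standard error (SE), and adjusted p-values come from limma with Benjamini-Hochberg adjustment over 9805 genes. Genes with an adjusted p under 0.05 were called. Because values scaled to the library total depend on what else is in the library, each fit was repeated with the libraries rescaled by their median ratio to an average library (relative log expression, RLE). This moved the median change of all genes from 0.06 to -0.01 in control cells with ES and from 0.09 to -0.03 in FDX1-OE cells with ES. Among all genes, 2498 were called higher and 1269 lower with ES in control cells, against 1694 and 2125 with RLE. In FDX1-OE cells the counts were 3632 and 1878, against 2380 and 3105 with RLE. Where RLE changed a call or a direction of a class II gene, the RLE value is given beside the other.

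In control DMSO cells CD74 was the most abundant of the 10 genes, ranking 50 of all genes by FPKM, and HLA-DRA ranked 88. HLA-DPA1, HLA-DRB1 and HLA-DQB1 followed at ranks 280, 312 and 332, then HLA-DMA at 547, HLA-DQA1 at 585, HLA-DMB at 1103 and HLA-DPB1 at 2040. CIITA ranked 6429, near 6 FPKM. The ranks of HLA-DPB1 and CIITA depend on long counting models of 3991 and 19560 bases, recovered from the values. The neighbouring levels of these genes did not overlap between libraries in this group. In FDX1-OE cells with ES, HLA-DQB1 at 207 and 208 FPKM lay above HLA-DPA1 at 197 and 199 FPKM, while HLA-DQA1 at 132 and 133 FPKM lay within the range of HLA-DMA, which was 122 and 144 FPKM.

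**Figure D1:**
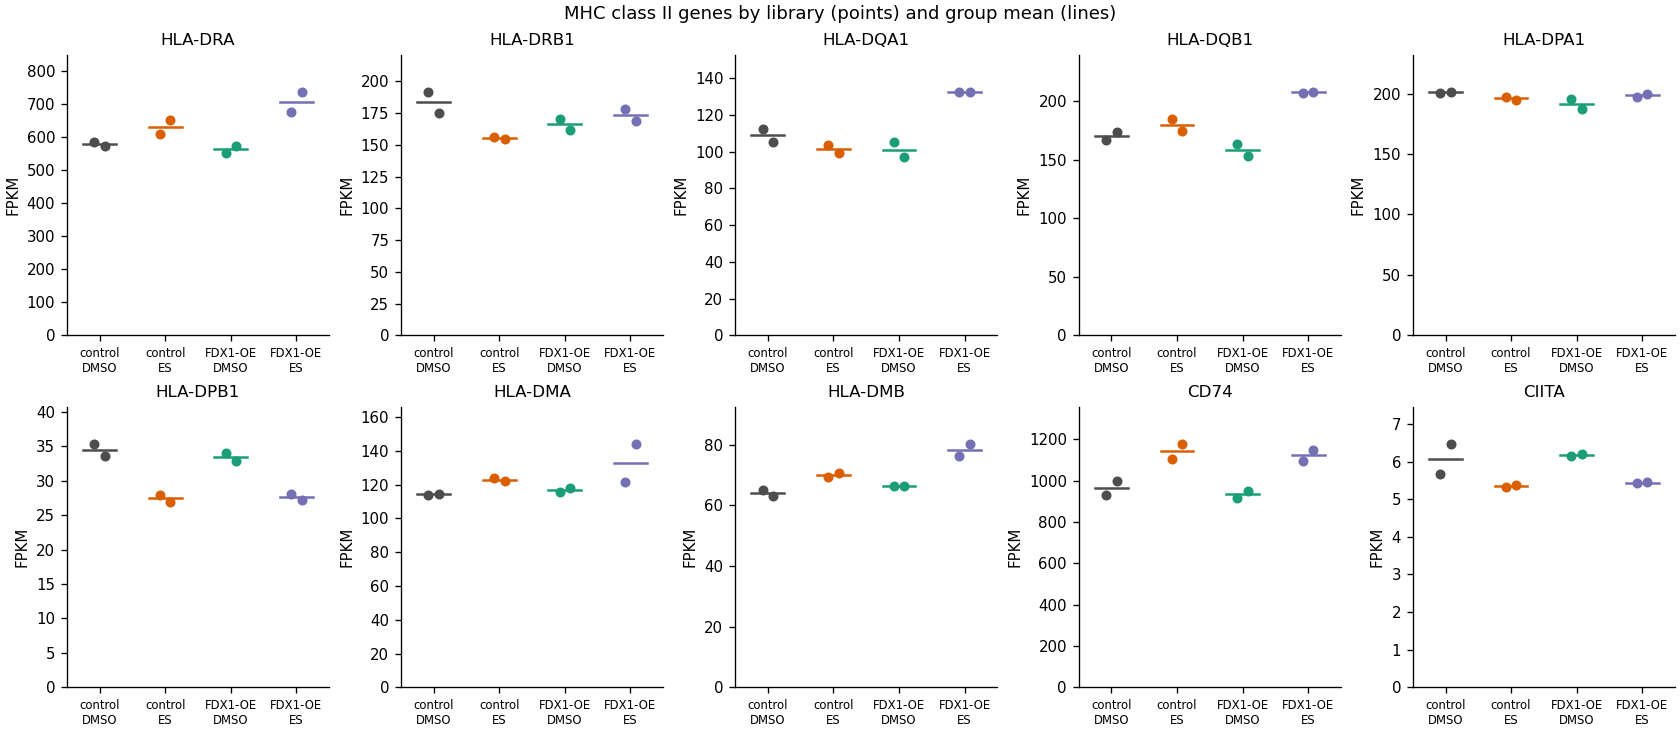
Level of each of the 10 class II genes in FPKM (vertical axes, linear from 0) in the 4 groups, with points for the 2 libraries of a group and lines for the group mean. HLA-DQA1 and HLA-DQB1 are highest in FDX1-OE cells with ES, while HLA-DPB1 is lower in all 4 ES libraries than in all 4 DMSO libraries.

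With ES, the class II genes did not move as a block. In control cells, 1 of the 10 genes was called higher, against 25.5% of all genes, and 2 were called lower, against 12.9%; in either direction, 38.4% of all genes were called. CD74 rose, and HLA-DPB1 and HLA-DRB1 fell. In FDX1-OE cells 6 of the 10 genes were called higher, against 37.0% of all genes, and 1 was called lower, against 19.2%; in either direction, 56.2% of all genes were called. The genes that rose were HLA-DRA, HLA-DQA1, HLA-DQB1, HLA-DMA, HLA-DMB and CD74, and HLA-DPB1 fell. With RLE the counts were 1 higher and 4 lower in control cells, and 3 higher and 2 lower in FDX1-OE cells. Beside these, RLE called 1694 of 9805 genes higher and 2125 lower in control cells, and 2380 and 3105 in FDX1-OE cells. The median change of the 10 genes was 0.02 in control cells, beside 0.06 over all genes, and 0.21 in FDX1-OE cells, beside 0.09 over all genes. With RLE these medians were -0.07 beside -0.01, and 0.07 beside -0.03. Summed over the 10 genes, class II transcripts made up 0.603% to 0.634% of all FPKM in the 4 DMSO libraries. They made up 0.668% and 0.697% in control cells with ES, and 0.710% and 0.733% in FDX1-OE cells with ES. CD74 and HLA-DRA hold most of that sum. In bulk RNA a share of cells with more transcript and more transcript per cell cannot be told apart.

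HLA-DRA encodes the alpha chain of HLA-DR, which hardly varies between people. It stood at 584 and 572 FPKM in control DMSO libraries and at 609 and 650.4 FPKM in control ES libraries. In FDX1-OE cells it stood at 551 and 573 FPKM in DMSO and at 676 and 736.5 FPKM in ES. The ES libraries lay above the DMSO libraries in both genotypes, and the highest 2 of all 8 were the FDX1-OE libraries with ES. The change was 0.33 in FDX1-OE cells (SE 0.055, adjusted p = 0.000566), called in all 16 alternatives. In control cells it was 0.12 (SE 0.055, adjusted p = 0.104).

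HLA-DRB1 encodes the beta chain that pairs with it and carries most of the variation between people. In control cells it was 192 and 175 FPKM in DMSO and 156 and 155 FPKM in ES, with no overlap. In FDX1-OE cells it was 171 and 162 FPKM in DMSO and 178 and 169 FPKM in ES, and these overlapped. The beta chain fell with ES in control cells, by 0.23 on the log2 scale (SE 0.057, adjusted p = 0.00912). Without replicate 1 of control cells in DMSO, the change was -0.17 and the call was lost (adjusted p = 0.0801; over all alternatives 0.000563 to 0.0801). In FDX1-OE cells the change was 0.06 as deposited and -0.08 with RLE (adjusted p = 0.387 and 0.246 by limma; over all alternatives 0.246 to 0.831), called with neither. HLA-DRB5, a closely related gene, lies between HLA-DRA and HLA-DRB1 on chromosome 6 in RefSeq. Whether these cells carry it is not stated in the labels. As counted, HLA-DRB5 stood at 205 and 201 FPKM in control DMSO libraries and at 181 and 180.0 FPKM in control ES libraries. Its change there was -0.165 (SE 0.045, adjusted p = 0.0149), and the call was lost without replicate 1 of control cells in DMSO or without either control ES library (adjusted p up to 0.0766). Reads that fit both genes could have been counted to either, so the 2 genes' separate levels are uncertain.

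HLA-DQA1 encodes the alpha chain of HLA-DQ. In DMSO it was 112 and 105 FPKM in control cells and 105 and 96.9 FPKM in FDX1-OE cells. In ES it was 104 and 99.3 FPKM in control cells and 132 and 133 FPKM in FDX1-OE cells. The FDX1-OE libraries with ES stood above the other 6, and the control libraries with ES stood below the control libraries in DMSO. ES changed HLA-DQA1 by 0.39 in FDX1-OE cells (SE 0.057, adjusted p = 0.000217), called in all 16 alternatives. In control cells the change was -0.10 (SE 0.057, adjusted p = 0.183), which RLE made -0.19 and a call (adjusted p = 0.0235; over all alternatives 0.0235 to 0.586).

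HLA-DQB1, its beta chain partner and the next class II gene on chromosome 6, was 167 and 173 FPKM in control DMSO libraries and 163 and 153 FPKM in FDX1-OE DMSO libraries. With ES it was 185 and 174 FPKM in control cells and 207 and 208 FPKM in FDX1-OE cells. Here too the FDX1-OE libraries with ES stood above the other 6. The ES change was 0.39 in FDX1-OE cells (SE 0.053, adjusted p = 0.000131), the same size as for HLA-DQA1 and called in all 16 alternatives. In control cells it was 0.08 as deposited and -0.01 with RLE (adjusted p = 0.272 and 0.881 by limma; over all alternatives 0.18 to 0.916). RefSeq places an antisense RNA over each of these genes, HLA-DQA1-AS1 and HLA-DQB1-AS1. Whether the reads were counted by strand is not stated, so reads of gene and antisense RNA cannot be told apart.

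HLA-DPA1 and HLA-DPB1, the alpha and beta chain of HLA-DP, lie head to head and overlap, so that reads of the shared stretch may have been counted to either gene or to neither. HLA-DPA1 was nearly flat, at 201 and 202 FPKM in control DMSO libraries, 197 and 195 FPKM in control ES libraries, 195 and 187 FPKM in FDX1-OE DMSO libraries and 197 and 199 FPKM in FDX1-OE ES libraries. Its ES change was -0.04 in control cells (adjusted p = 0.537) and, in FDX1-OE cells, 0.05 as deposited and -0.09 with RLE (adjusted p = 0.342 and 0.116 by limma; over all alternatives 0.116 to 0.799), none of them called. The 95% interval of the change was -0.14 to 0.06 in control cells and -0.05 to 0.15 in FDX1-OE cells. HLA-DPB1 was 35.4 and 33.6 FPKM in control DMSO libraries and 28.0 and 27.0 FPKM in control ES libraries. In FDX1-OE cells it was 34.0 and 32.9 FPKM in DMSO and 28.1 and 27.3 FPKM in ES. All 4 ES libraries lay below all 4 DMSO libraries. HLA-DPB1 fell by 0.32 on the log2 scale in control cells (SE 0.056, adjusted p = 0.00157) and by 0.27 in FDX1-OE cells (SE 0.056, adjusted p = 0.00215), both called in all 16 alternatives. It was the only one of the 10 genes that was called lower with ES in both genotypes with the values as deposited.

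**Figure D2:**
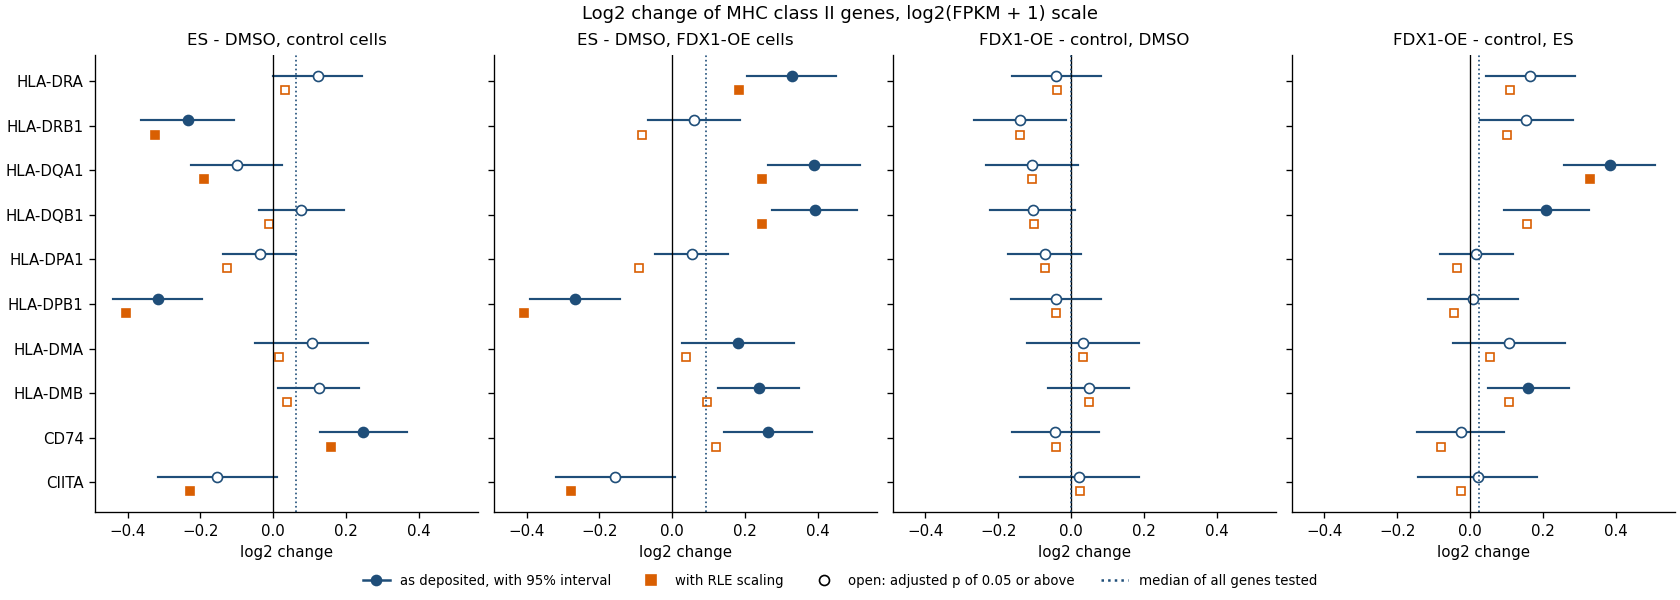
Log2 change of each class II gene (horizontal axes, log2 of FPKM + 1) in 4 comparisons. Circles show values as deposited with their 95% interval, squares show the change after RLE scaling, filled symbols passed an adjusted p of 0.05, and the dotted line is the median of all genes tested. HLA-DPB1 lies left of 0 with ES in both genotypes, HLA-DRA, HLA-DQA1 and HLA-DQB1 lie right of 0 in FDX1-OE cells with ES with filled symbols under both scalings, and no symbol is filled for FDX1-OE against control cells in DMSO.

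HLA-DMA and HLA-DMB encode the 2 chains of the peptide editor. HLA-DMA was 114 and 115 FPKM in control DMSO libraries, 124 and 122 FPKM in control ES libraries, 116 and 118 FPKM in FDX1-OE DMSO libraries and 122 and 144 FPKM in FDX1-OE ES libraries. A single library, FDX1-OE with ES replicate 2, held the highest value. The ES change in FDX1-OE cells was 0.18 (SE 0.07, adjusted p = 0.0462), and without that library it was 0.06 and not called (adjusted p = 0.421; over all alternatives 0.00206 to 0.661). With RLE the change was 0.04 (adjusted p = 0.661). The call held in 4 of 16 alternatives, and of the fits that left out 1 library it held only without replicate 1 of FDX1-OE cells with ES. HLA-DMB was 65.0 and 63.2 FPKM in control DMSO libraries, 69.3 and 70.8 FPKM in control ES libraries, 66.3 and 66.3 FPKM in FDX1-OE DMSO libraries and 76.4 and 80.4 FPKM in FDX1-OE ES libraries. It rose with ES in FDX1-OE cells by 0.24 (SE 0.05, adjusted p = 0.00227), but with RLE the change was 0.10 and not called (adjusted p = 0.13; over all alternatives 0.00201 to 0.13). In control cells HLA-DMB changed by 0.12 (adjusted p = 0.0712) and HLA-DMA by 0.11 (adjusted p = 0.255), and neither was called.

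CD74, the invariant chain, was 930.2 and 999 FPKM in control DMSO libraries and 1108 and 1180.3 FPKM in control ES libraries. In FDX1-OE cells it was 919 and 953 FPKM in DMSO and 1096 and 1151 FPKM in ES. All 4 ES libraries lay above all 4 DMSO libraries. CD74 rose by 0.25 in control cells (SE 0.054, adjusted p = 0.00535), called in all 16 alternatives. It rose by 0.26 in FDX1-OE cells (SE 0.054, adjusted p = 0.00197), and with RLE that change was 0.12 and not called (adjusted p = 0.0869; over all alternatives 0.000429 to 0.0869).

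CIITA, the coactivator, was 5.67 and 6.48 FPKM in control DMSO libraries, 5.32 and 5.37 FPKM in control ES libraries, 6.15 and 6.20 FPKM in FDX1-OE DMSO libraries and 5.43 and 5.45 FPKM in FDX1-OE ES libraries. Its 4 ES libraries lay below its 4 DMSO libraries. The change was -0.15 in control cells (SE 0.074, adjusted p = 0.124) and -0.16 in FDX1-OE cells (SE 0.074, adjusted p = 0.0956), not called. With RLE the changes were -0.23 and -0.28 and both were called (adjusted p = 0.0314 and 0.00839; over all alternatives 0.00569 to 0.544 in control cells and 0.00133 to 0.232 in FDX1-OE cells). CIITA thus lay lower with ES under every scaling tried, and whether it passed the threshold turned on the scaling. DEXI overlaps CIITA in RefSeq, which bears on its reads where strand was not used.

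The chains of a pair could be set against each other within a library, which no rescaling of that library can move. The ratio of HLA-DRA to HLA-DRB1 was 3.04 and 3.27 in control cells in DMSO and 3.23 and 3.54 in FDX1-OE cells in DMSO. With ES it was 3.90 and 4.20 in control cells and 3.79 and 4.36 in FDX1-OE cells, so that all 4 ES libraries stood higher. The ratio of HLA-DPA1 to HLA-DPB1 likewise lay between 5.67 and 6.004 in DMSO and between 7.04 and 7.31 in ES. HLA-DQA1 to HLA-DQB1 behaved differently. This ratio was 0.674 and 0.608 in control cells in DMSO, 0.561 and 0.571 in control cells with ES, 0.644 and 0.634 in FDX1-OE cells in DMSO and 0.640 and 0.638 in FDX1-OE cells with ES. It was lower with ES in control cells and stayed between 0.634 and 0.644 in FDX1-OE cells. HLA-DMA to HLA-DMB lay between 1.59 and 1.82 in all 8 libraries, with the groups overlapping. These ratios are described without a test, and their absolute size depends on the gene lengths used for FPKM. They may also depend on how reads shared by HLA-DRB1 and HLA-DRB5, and by HLA-DPA1 and HLA-DPB1, were counted.

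**Figure D3:**
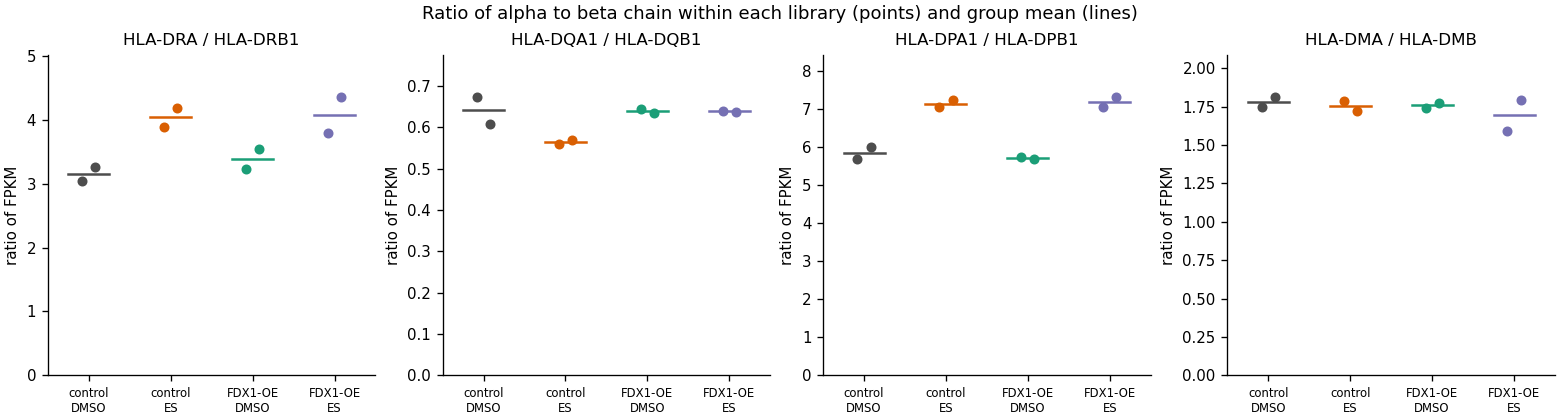
Ratio of the FPKM of the alpha chain to that of the beta chain (vertical axes, linear from 0) for 4 class II pairs, with points for libraries and lines for group means. HLA-DRA to HLA-DRB1 and HLA-DPA1 to HLA-DPB1 are higher in all 4 ES libraries than in all 4 DMSO libraries, and HLA-DQA1 to HLA-DQB1 is lowest in control cells with ES.

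FDX1-OE and control cells were also compared without ES. In DMSO, 0 of the 10 genes were called by limma, against 0.51% of all genes (0.428% higher and 0.0816% lower), and 0 were called in any of the 16 alternatives. Their changes ran from -0.14 for HLA-DRB1 (SE 0.057, adjusted p = 0.62) to 0.05 for HLA-DMB (SE 0.05, adjusted p = 0.948). The 2 groups did not overlap for HLA-DRB1, HLA-DPA1, HLA-DQA1 and HLA-DQB1, all lower in FDX1-OE cells, or for HLA-DMA and HLA-DMB, both higher. At an unadjusted limma p under 0.05, 1 of the 10 genes passed, which was HLA-DRB1. How many of all genes separated in this way, or passed unadjusted, was not counted. With 2 libraries in each group, neither observation is a result about the class II genes.

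With ES in both genotypes, HLA-DQA1 differed most. FDX1-OE cells stood above control cells by 0.38 for HLA-DQA1 (SE 0.057, adjusted p = 0.00159), called in all 16 alternatives. HLA-DQB1 was higher by 0.21 (SE 0.053, adjusted p = 0.019) and HLA-DMB by 0.16 (SE 0.05, adjusted p = 0.0444). These 3 of the 10 genes were called higher, against 13.6% of all genes, and none lower, against 7.78%; in either direction, 21.4% of all genes were called. With RLE only HLA-DQA1 was called, where 978 of 9805 genes were called higher and 1273 lower. HLA-DQB1 then had an adjusted p of 0.0577 by limma (over all alternatives 0.0171 to 0.139) and HLA-DMB one of 0.149 (over all alternatives 0.0398 to 0.195). HLA-DQB1 also lost its call without either FDX1-OE library with ES or without replicate 2 of control cells with ES, and HLA-DMB lost its call when any 1 of the 8 libraries was left out. Without replicate 1 of FDX1-OE cells with ES, HLA-DRA was called in turn at 0.23 (adjusted p = 0.0452; over all alternatives 0.0358 to 0.278), and so was HLA-DMA at 0.23 (adjusted p = 0.0348; over all alternatives 0.0348 to 0.884). HLA-DRA at 0.16 (SE 0.055, adjusted p = 0.0566) and HLA-DRB1 at 0.15 (SE 0.057, adjusted p = 0.0791) missed the threshold, although their ES libraries did not overlap between genotypes. CD74, HLA-DPB1, HLA-DPA1 and CIITA differed by -0.03 to 0.02 as deposited and by -0.08 to -0.02 with RLE, where the signs of HLA-DPB1, HLA-DPA1 and CIITA turned. None of these was called.

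Whether the response to ES itself differed between the genotypes was tested with an interaction, the ES change in FDX1-OE cells less the ES change in control cells. HLA-DQA1 gave 0.49 (SE 0.08, adjusted p = 0.0108), from a change of -0.10 in control cells to one of 0.39 in FDX1-OE cells. It was called in 13 of 15 alternatives, and without replicate 2 of control cells with ES its adjusted p was 0.051 (over all alternatives 0.00474 to 0.0545). HLA-DQB1 gave 0.31 (SE 0.075, adjusted p = 0.0444) and was called in 4 of 15 alternatives. Among the 8 fits that left out 1 library, it was called only without replicate 1 of control cells with ES, and with RLE it was 0.26 and not called (adjusted p = 0.0701; over all alternatives 0.0342 to 0.169). These 2 of the 10 genes were called with a larger ES change in FDX1-OE cells, against 3.25% of all genes, and none with a smaller one, against 1.05%; in either direction, 4.3% were called. HLA-DRB1 gave 0.30 (SE 0.081, adjusted p = 0.0668) and HLA-DRA 0.21 (SE 0.078, adjusted p = 0.154), not called. For CD74, HLA-DPB1 and CIITA, whose ES changes were near equal in the genotypes, the interaction was 0.02, 0.05 and -0.002. The 95% intervals were -0.15 to 0.19 for CD74, -0.12 to 0.23 for HLA-DPB1 and -0.23 to 0.23 for CIITA, and RLE turned CD74 to -0.04 and HLA-DPB1 to -0.002. The interaction shares its libraries with the comparisons above and is no separate evidence for them.

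Across the 8 libraries, which share the groups and the scaling, the 10 genes did not follow a common course. HLA-DRA and HLA-DMB had a Pearson correlation of 0.95, HLA-DMA and HLA-DMB 0.87, and HLA-DQA1 and HLA-DQB1 0.85. HLA-DRA and HLA-DRB1 had -0.13, HLA-DPA1 and HLA-DPB1 0.00, and HLA-DPB1 ran opposite to CD74 at -0.97. CIITA had 0.78 with HLA-DPB1, -0.74 with CD74 and -0.72 with HLA-DRA. The genes whose pattern was most like that of CIITA were TRAK1 (Pearson 0.975 over 8 libraries), SCLY (0.974), FMNL1 (0.973), SRF (0.972) and GMEB2 (0.965). For the mean of the 6 HLA-DR, HLA-DP and HLA-DQ chains they were TMSB4X (0.969), CD59 (0.965), RPL37A (0.950), IFI30 (0.949) and CHKA (0.947). IFI30 is the endosomal thiol reductase that unfolds antigens for class II, and it was 367 and 375 FPKM in control cells in DMSO, 355 and 337 with ES, 348 and 330.2 in FDX1-OE cells in DMSO and 382 and 379 with ES.

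Among 18 other class II and antigen-processing genes, 14 passed the filter. ES was followed by 3 higher and 3 lower calls in control cells and by 9 higher and 2 lower calls in FDX1-OE cells, or 2 and 4, and 6 and 3, with RLE. Over all genes as deposited, 25.5% were called higher and 12.9% lower in control cells, and 37.0% and 19.2% in FDX1-OE cells. With RLE, 1694 of 9805 genes were called higher and 2125 lower in control cells, and 2380 and 3105 in FDX1-OE cells. LGMN, an asparagine endopeptidase that cuts the invariant chain and antigens, was 6.83 and 7.11 FPKM in control DMSO libraries, 13.8 and 14.2 in control ES libraries, 6.66 and 6.63 in FDX1-OE DMSO libraries and 20.7 and 19.7 in FDX1-OE ES libraries. It rose by 0.91 in control cells (SE 0.062, adjusted p = 5.47e-06) and by 1.47 in FDX1-OE cells (SE 0.062, adjusted p = 1.43e-07), with an interaction of 0.56 (SE 0.088, adjusted p = 0.00914). SPPL2A, the membrane protease that clears the invariant chain stub, rose by 0.31 in control cells and 0.69 in FDX1-OE cells (adjusted p = 0.0152 and 6.41e-05). In control cells its call was lost without replicate 2 in DMSO or replicate 1 in ES (adjusted p = 0.0798 and 0.106 by limma; over all alternatives 0.01 to 0.106). HLA-DOB, a chain of the HLA-DM inhibitor HLA-DO, rose by 0.28 and 0.49 (adjusted p = 0.0209 and 0.000489 by limma). The call in control cells was lost with RLE (0.19, adjusted p = 0.0825; over all alternatives 0.00531 to 0.108) and without either control DMSO library or replicate 2 of control cells with ES. The partner chain HLA-DOA changed by 0.18 in FDX1-OE cells (adjusted p = 0.0116), and with RLE by 0.04 with no call (adjusted p = 0.543; over all alternatives 0.00422 to 0.543). CTSS, the main invariant chain protease of B cells, rose by 0.35 in FDX1-OE cells (adjusted p = 0.00637). The cathepsin CTSZ fell by 0.24 and 0.33 on the log2 scale (adjusted p = 0.00394 and 0.000306), and the endosomal tetraspanin CD63 fell by 0.46 and 0.57 (adjusted p = 0.00021 and 1.7e-05). CTSL, HLA-DQA2, HLA-DQB2 and MARCHF1 stayed below 1 FPKM in every library.

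Among regulators of class II transcription, some were called and some were not. Of 18 on the list, 16 passed the filter, and IRF4 and PRDM1 did not. With ES 9 were called higher and none lower in control cells, and 9 higher and 2 lower in FDX1-OE cells; with RLE, 6 and 0, and 6 and 2. The shares over all genes as deposited were the same 25.5% and 12.9% in control cells, and 37.0% and 19.2% in FDX1-OE cells. With RLE, 1694 of 9805 genes were called higher and 2125 lower in control cells, and 2380 and 3105 in FDX1-OE cells. RFXAP, NFYA, CREB1 and EP300 were called in neither genotype. RFX5, the DNA-binding subunit of RFX on which CIITA docks, was 34.4 and 34.6 FPKM in control DMSO libraries, 41.0 and 41.0 in control ES libraries, 37.1 and 34.6 in FDX1-OE DMSO libraries and 56.4 and 54.9 in FDX1-OE ES libraries. It rose by 0.24 in control cells (SE 0.054, adjusted p = 0.00544) and by 0.62 in FDX1-OE cells (SE 0.054, adjusted p = 7.31e-06). Its interaction was 0.38 (SE 0.076, adjusted p = 0.0252 by limma). Without replicate 2 of FDX1-OE cells in DMSO it was 0.33 and not called (adjusted p = 0.103), and 5 other single libraries also ended the call when left out. RFXANK, another RFX subunit, was called lower by 0.16 on the log2 scale in FDX1-OE cells (adjusted p = 0.0287), a call lost without any 1 of the 4 FDX1-OE libraries. IRF1, a transcription factor of the interferon response, rose by 0.99 in control cells (adjusted p = 3.71e-05) and by 1.44 in FDX1-OE cells (adjusted p = 1.18e-06). KAT2B, an acetyltransferase, rose by 0.46 and 0.79 (adjusted p = 0.00301 and 4.82e-05). SPI1, a factor of B and myeloid cells, was called lower by 0.22 on the log2 scale in FDX1-OE cells (adjusted p = 0.00648), a call lost without replicate 1 of FDX1-OE cells in DMSO. EZH2, the histone methyltransferase of Polycomb complex PRC2, which can silence CIITA and class II genes, was 23.9 and 24.5 FPKM in control cells in DMSO, 33.9 and 34.6 with ES, 24.1 and 23.4 in FDX1-OE cells in DMSO and 32.3 and 34.3 with ES. It rose by 0.49 in control cells (SE 0.056, adjusted p = 0.000153, limma) and by 0.47 in FDX1-OE cells (SE 0.056, adjusted p = 5.87e-05), called in all 16 alternatives. The interaction of EZH2 was -0.015 (SE 0.079, adjusted p = 0.934 by limma) and was not called. A link between any of these regulators and a class II gene was not tested.

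**Figure D4:**
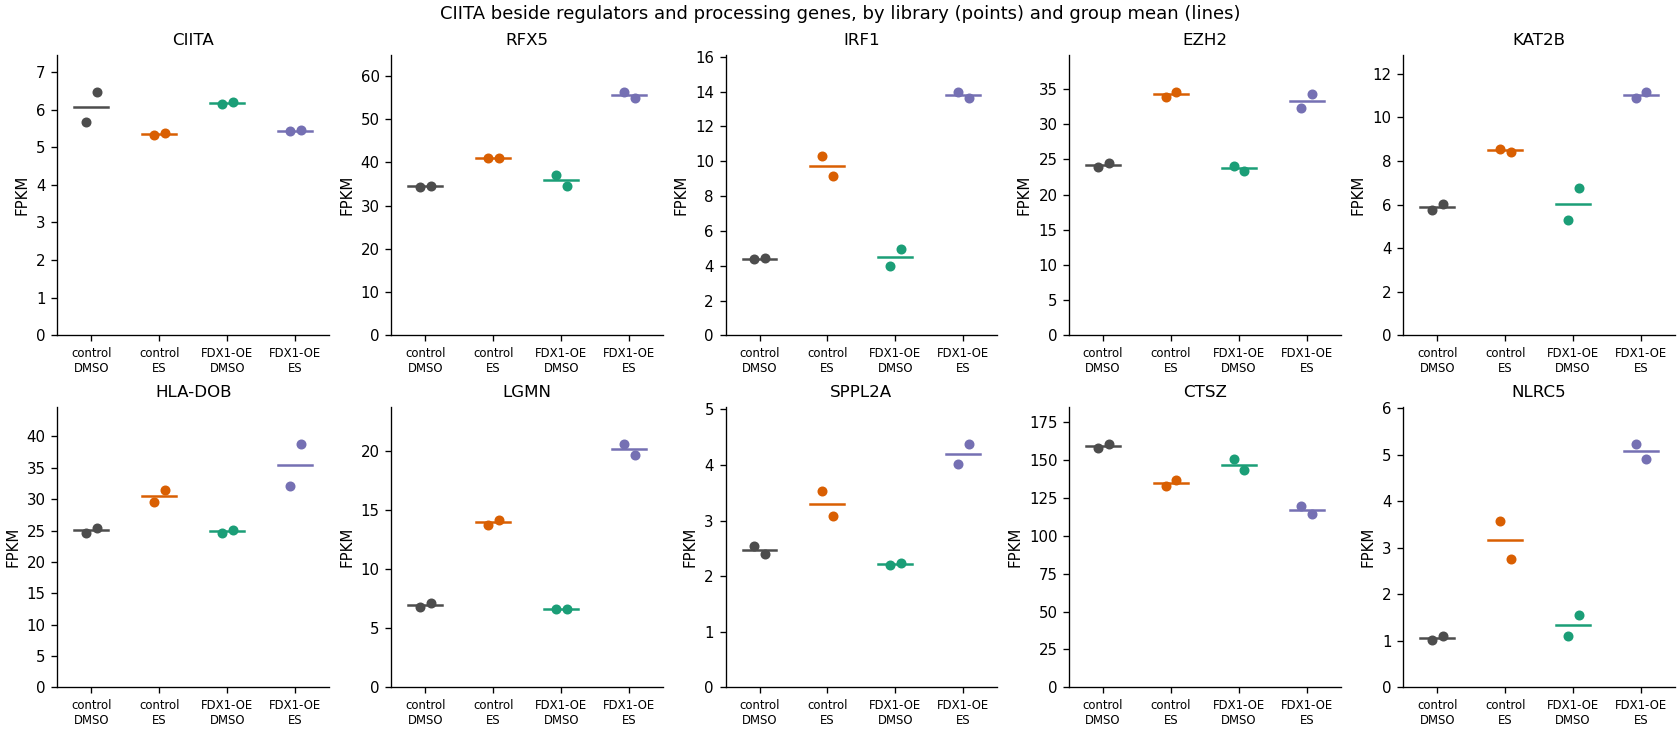
Level in FPKM (vertical axes, linear from 0) of CIITA, 4 regulators, 4 genes of class II processing and NLRC5 in the 4 groups, with points for libraries and lines for group means. CIITA stands lower in the 4 ES libraries, CTSZ falls, and the other 8 are higher in the 4 ES libraries than in the DMSO libraries of the same genotype.

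MHC class I genes gave a comparison within the same libraries. Of 12 listed, 11 passed the filter, and 9 were called higher with ES and none lower in each genotype, under both scalings. As deposited, 25.5% of all genes were called higher and 12.9% lower in control cells, and 37.0% and 19.2% in FDX1-OE cells. With RLE, 1694 of 9805 genes were called higher and 2125 lower in control cells, and 2380 and 3105 in FDX1-OE cells. The median change of the 11 was 0.57 in control cells and 1.07 in FDX1-OE cells, where the 10 class II genes had 0.02 and 0.21. With RLE the medians were 0.48 and 0.93 for class I, and -0.07 and 0.07 for class II. HLA-B rose by 1.12 and 2.21 (adjusted p = 2.55e-05 and 1.59e-07). NLRC5, the class I counterpart of CIITA, was 1.02 and 1.09 FPKM in control DMSO libraries, 3.57 and 2.76 in control ES libraries, 1.11 and 1.55 in FDX1-OE DMSO libraries and 5.24 and 4.90 in FDX1-OE ES libraries. It rose by 1.01 and 1.38 (adjusted p = 0.000149 and 5.77e-06). The changes of the class I and class II genes were not tested against each other.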

How the data were processed

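RNA-seq values were deposited by the authors as FPKM for 15597 genes in each of 8 libraries; the file headers name no unit, and FPKM was read from the values. HISAT2, HTSeq, R 3.2.0 and hg19 appear in the submitters' processing notes, with the annotation, the strand setting and each tool's role not given in the sources used here. Each gene's values were whole multiples of a step set by its length and the library total, so reads, lengths and totals were recovered, whole within 0.02 read; read recovery and the fit were tested on simulated data.

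The 9805 genes that reached 1 FPKM in 2 or more libraries were fitted as log2(FPKM + 1) with limma 3.58.1 in R 4.3.3, two-sided, with 4 group means, a mean trend (4 residual degrees of freedom and a prior of 6.6) and Benjamini-Hochberg adjustment in each of 5 comparisons. Because replicates are not said to be separate cultures, p-values measure only the spread between libraries, which may be technical. The pseudocount of 1 understates changes of low genes such as CIITA.

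Named genes were all 10 class II genes, genes of the lists of other class II and processing genes, transcriptional regulators, MHC class I genes and cell type markers, and the 5 genes with the highest Pearson correlation to CIITA and to the mean of the 6 chains. These genes and lists, the 10 class II genes included, were proposed with earlier results of these data known, although no measured value enters the rule for the 10. Alternatives were a pseudocount of 0.1, no filter, a mean of at least 5 FPKM, RLE scaling, no mean trend, voom on recovered reads, the replicate number as a block, only the groups compared, and leaving out each library. Promoters came from RefSeq (GRCh38.p14). The coordinates of the study's own build, hg19, were not used.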

Additional observations from a re-analysis of the deposited data

Results flagged for a closer look

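The ES response of HLA-DQA1 differed between the genotypes. The ES change in FDX1-OE cells less the ES change in control cells was 0.49 on the log2(FPKM + 1) scale (SE 0.08, adjusted p = 0.0108, limma interaction). It was called in 13 of 15 alternatives, with adjusted p from 0.00474 to 0.0545. Both FDX1-OE libraries with ES lay above both in DMSO, and both control libraries with ES lay below both in DMSO.

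The ES response of HLA-DQB1 also differed, by 0.314 on the same scale (SE 0.075, adjusted p = 0.0444, limma interaction). It was called in 4 of 15 alternatives, with adjusted p from 0.0342 to 0.169. Both ES libraries lay above both DMSO libraries in each genotype with the values as deposited, and with RLE the change in control cells was -0.01. The causes were not tested.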

How the results depend on the processing

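Among the log2 changes of the 10 genes recomputed under alternatives, 704 kept direction and side of the threshold, 45 lost their call, 11 became calls and 30 turned sign. The cause was not tested.

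Signs turned only for values that were called in neither fit. With RLE scaling these were the ES changes of HLA-DQB1 in control cells (-0.012) and of HLA-DRB1 (-0.083) and HLA-DPA1 (-0.091) in FDX1-OE cells, the differences between genotypes in ES of HLA-DPA1 (-0.036), HLA-DPB1 (-0.043) and CIITA (-0.024), and the interactions of HLA-DPB1 (-0.002) and CD74 (-0.039). With voom on recovered reads they were HLA-DRB1 (-0.037) and HLA-DPA1 (-0.045) with ES in FDX1-OE cells, HLA-DPA1 (-0.013), HLA-DPB1 (-0.021) and CIITA (-0.006) between genotypes in ES, and the interaction of CD74 (-0.013). Leaving out 1 library gave -0.094 to 0.008 for CD74 and -0.06 to 0.105 for CIITA between genotypes in DMSO, -0.072 to 0.02 for CD74, -0.016 to 0.034 for HLA-DPB1 and -0.015 to 0.23 for HLA-DMA between genotypes in ES, and interactions of -0.034 to 0.068 for CD74, -0.084 to 0.081 for CIITA and -0.047 to 0.199 for HLA-DMA.

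Counts of class II genes called with ES became 4 lower in control cells with RLE and with voom, and in FDX1-OE cells 3 higher with RLE and 2 lower with RLE and with voom. Between genotypes in ES the count called higher was 1 with RLE and 5 with the replicate block, and for the interaction it was 1 with a pseudocount of 0.1, with RLE and with no mean trend, and 0 with no filter on low values. Leaving out 1 library gave 1 to 2 lower calls in control cells, 1 to 3 higher calls between genotypes in ES and 0 to 2 for the interaction. Over all genes, the 50 calls between genotypes in DMSO became 2 with no filter and 83 with voom, and 13 to 66 without 1 library; the 2094 calls between genotypes in ES became 740 to 1927 without 1 library. The 422 interaction calls became 222 with a pseudocount of 0.1, 176 with no filter, 278 with no mean trend, 642 with voom and 93 to 625 without 1 library.

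The replicate numbers are shared between groups, but the deviations of same-numbered libraries from their group means correlated between -0.18 and 0.181 over 9805 genes, above 0.1 in 3 of 6 pairs of groups. The labels do not say that a number marks a shared culture or day, and the numbers were not taken to pair the samples. With the replicate block, HLA-DRA and HLA-DRB1 became calls between genotypes in ES (adjusted p = 0.0358 and 0.0437) and HLA-DRB1 one for the interaction (adjusted p = 0.0367), with values of 0.165, 0.155 and 0.296 by limma. No other class II call changed with the block. A fit of only the groups compared cannot give the interaction and was not run for it. CIITA had the fewest reads per base among the 10 genes, with 3488 to 4546 reads per library.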
